A study of Drosophila melanogaster with 12 samples.

Results

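The mitochondrial ribosomal protein genes of Drosophila melanogaster were described across ovaries of 4 genotypes, 2 wild types and 2 mutants of su(Hw). They were chosen by name: a gene belonged to the set if its symbol on the array platform or in current annotation begins with mRpL, for the large ribosomal subunit, or mRpS, for the small one. The RefSeq gene table holds 73 such genes, and 69 of them had a probe set that names no other gene, out of 11983 genes with such a probe set. Where a gene had several, the brightest was used. mRpS10 and mRpL53 were only on probe sets shared with a second gene, CG34316 and CG33155, and mRpL34 and mRpL37 had no listed probe set. The 69 genes comprised 44 mRpL and 25 mRpS genes.

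Mitochondria carry their own ribosome, which translates the few messages of the mitochondrial genome into core subunits of the respiratory chain and ATP synthase. All of its proteins are encoded in the nucleus, made in the cytoplasm and imported. Part of them descend from bacterial ribosomal proteins and part were added in the mitochondrial lineage. In the fly ovary, mitochondria multiply in the germline and are passed to the oocyte, and mutations in the mitochondrial ribosomal protein gene tko slow development and make adults sensitive to mechanical shock.

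Su(Hw) is a zinc-finger protein that binds DNA at gypsy insulators and many other sites, and its loss makes females sterile. The comparison of mutants with wild types addresses transcription in the ovary before mutant egg chambers die. Each array measured cDNA amplified from the total RNA of about 100 pairs of ovaries, taken from virgin females aged 4 to 6 h after eclosion, with 3 biological replicates per genotype. Per the labels, ovaries of this age reach stage 8 of egg chamber growth, starting from stage 1, and cells of the mutants enter apoptosis at stage 9. Canton S is a wild-type strain with no listed markers. BL15598 carries y[1] and w[67c23] on the X chromosome and an EPgy2 P element in CG6499, the insertion EY02782. The mutant su(Hw)Pb/2 carries su(Hw)[e04061] over su(Hw)[2], with an X marked by y[2], w[67c23], ct[6] and f[1]. The mutant su(Hw)A2663/v carries su(Hw)[A2663] with the same EPgy2 insertion as BL15598 and the same marked X as Pb/2. Its second allele is given as v in the source label and as su(Hw)[2] in the genotype label. Both mutants therefore share an X chromosome that neither wild type has, so for X-linked genes that chromosome and the loss of Su(Hw) cannot be told apart.

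Values were log2 signals, on which 1 unit is a 2-fold difference, and a signal over log2 5 was taken as measured. The su(Hw) transcript lay between 2.51 and 3.42 on the 6 mutant arrays and between 8.78 and 9.30 on the 6 wild-type arrays, at least 16.5-fold lower in the mutants. An exact permutation test on both sides gave p = 0.00216, the lowest value possible with 924 splits. All 4 germline markers on the array were over the floor, and all 4 testis markers were under it. The summed log2 signal of the germline markers was 13.67 to 13.83 on every array. It was carried mainly by osk, at 13.38 to 13.58, and so says little about the other markers. The signal of aub was 10.82 to 11.13 on the mutant arrays and 10.50 to 10.78 on the wild-type arrays. The mean of bam was 7.15 in Pb/2 and 7.65 to 7.93 in the other genotypes. That of vas was 7.15 in Pb/2 and 6.54 to 6.87 in the others. Of 3 follicle cell markers br was over the floor, while tj and slbo were under it on every array. In these bulk samples, fewer cells of a type and less RNA per cell cannot be told apart. The mean signal of 7 digestive enzyme genes was between 6.31 and 7.68 on 4 mutant arrays, replicates 1 and 2 of Pb/2 and 1 and 3 of A2663/v, against 2.27 to 4.46 on the others. Summed signals of 3 haemocyte markers were 5.49 to 6.51 in BL15598 and 7.46 to 8.59 in the other genotypes, carried mainly by Pxn in the mutants, where the mean of NimC1 was lower than in BL15598, and Hml was under the floor on all arrays. Those of 3 muscle markers were 11.63 to 11.79 in BL15598 and 11.86 to 12.39 in the other genotypes. Of 2 neuron markers nSyb was under the floor on all arrays, and the sum was 6.39 to 6.73 in Canton S and 5.45 to 6.28 in the others. Those of 2 fat body markers were 8.10 to 9.12 in the wild types, 8.65 to 9.51 in Pb/2 and 7.70 to 8.31 in A2663/v. The part of these cells in the results was not tested.

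All 69 mitochondrial ribosomal protein genes were over the floor on all 12 arrays and entered the test, among 6163 genes tested. Their mean signals ran from 7.18 for mRpS18C to 12.49 for mRpS7, with a median of 10.61, against a median of 8.66 for all genes tested. A signal depends on each probe set's own probes, so these values do not rank transcript amounts. The other 4 strongest signals were those of mRpS21, mRpS11, mRpL49 and mRpL24, and the other 4 weakest were those of mRpL48, mRpL40, mRpS14 and mRpL38. The genes varied little: the SD within a genotype had a median of 0.10 log2 units over the 69 genes and 0.14 over all genes, and the range of a gene over the 12 arrays was 0.24 to 1.18. Across the 69 genes, the correlation between replicate arrays was 0.981 to 0.997, and that between arrays of unlike genotypes 0.963 to 0.987, as a description of values that share probe sets.

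Set against both wild types together, the mutants showed small decreases in many of these genes. At an adjusted p under 0.05 (limma, Benjamini-Hochberg over all genes tested), 30 of the 69 genes fell and 1 rose. Of all genes tested, 26.6% were called lower and 20.3% higher. In either direction, 44.9% of the set and 46.9% of all genes were called, so the set's share of calls was near the background, while nearly all of its calls were in 1 direction. The median log2 change of the set was -0.14, with quartiles of -0.21 and -0.04, against -0.03 for all genes tested. The change was below 0 for 55 genes and above 0 for 14, against 3377 and 2786 of all genes tested. None of the 69 passed the same test with a minimum of 2-fold, as 5.83% of all genes did, and none reached 2-fold at an unadjusted p under 0.05 in limma either.

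**Figure D1:**
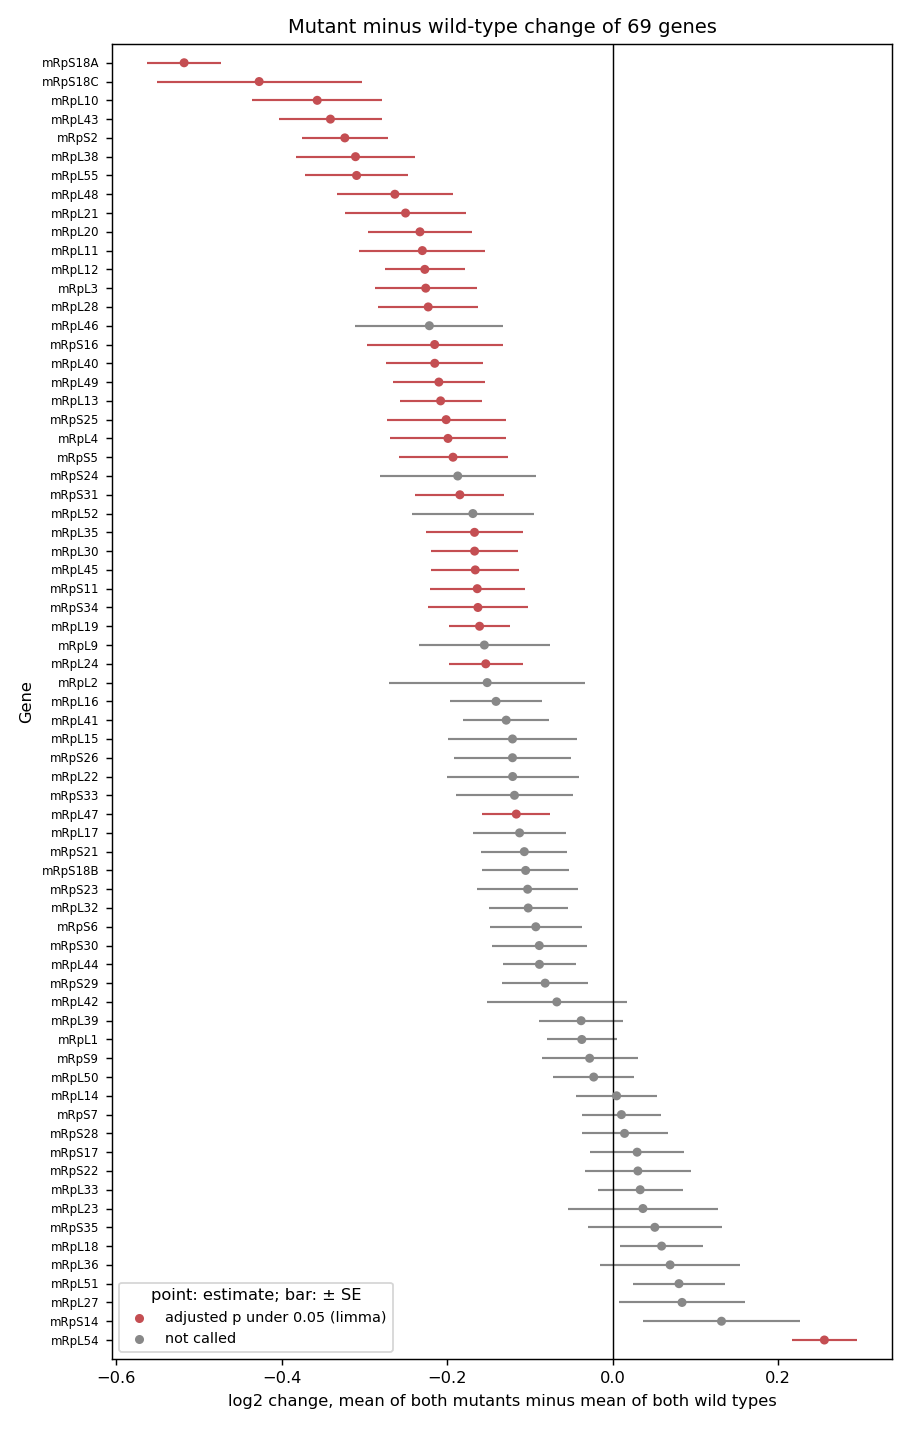
Mutant minus wild-type log2 change of the 69 genes (x axis), 1 gene per row, with bars of ± SE from limma over 12 arrays and red points for an adjusted p under 0.05. The changes run from -0.52 for mRpS18A to 0.26 for mRpL54, and 30 of the 31 red points lie below 0.

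The decreases were spread over both subunits and over proteins of both origins. Of the mRpL genes 21 of 44 fell (47.7%), with a median change of -0.15. Of the mRpS genes 9 of 25 fell (36%), with a median of -0.11. Among 41 genes for homologues of bacterial ribosomal proteins 19 fell (median -0.15), and among 27 genes for proteins particular to mitochondrial ribosomes 10 fell and 1 rose (median -0.12). mRpL55 was placed in neither class. By chromosome arm, 5 of 11 genes fell on X (45.5%), 7 of 12 on 2L (58.3%) and 2 of 10 on 2R (20%). On 3L 6 of 17 fell (35.3%) and on 3R 10 of 19 (52.6%). These shares stand beside 26.6% of all genes called lower, and that of 2R lay below it. Of the 69 genes, 41 overlap another protein-coding gene in the RefSeq table. These include 17 of the 30 that fell, and the sources used here do not say how probes in shared stretches were handled.

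The mutant arrays also differed from most wild-type arrays in a measure used for RNA integrity and amplification on such arrays. The array's GAPDH control has probe sets at the 3′ and the 5′ end of the transcript, and a larger 3′ minus 5′ log2 signal means less 5′ cDNA. This difference was 2.42 ± 0.10 (SD, n = 6) on the mutant arrays and 2.01 ± 0.24 (SD, n = 6) on the wild-type arrays. It was 2.03, 2.03 and 2.43 in Canton S, 1.91, 1.67 and 2.00 in BL15598, 2.27, 2.54 and 2.41 in Pb/2 and 2.36, 2.45 and 2.49 in A2663/v. Canton S replicate 3 thus lay among the mutants. It did so for the set as well: of the 69 genes, 11 were above their own mean on that array, against 55 and 49 on the other Canton S arrays. The corresponding counts were 63, 60 and 49 in BL15598, 19, 6 and 16 in Pb/2 and 36, 35 and 19 in A2663/v. The mean GAPDH difference was 2.41 in Pb/2 and 2.43 in A2663/v. The median deviation of the 69 genes from their own means averaged -0.10 in Pb/2, -0.02 in A2663/v and 0.01 in Canton S. That of all genes tested averaged -0.04, 0.01 and 0.02, in the same order. For the eIF-4a control the 3′ minus 5′ difference was 3.05 on Canton S replicate 3, 2.06 to 2.34 on the other wild-type arrays and 2.66 to 3.30 on the mutant arrays. For the actin control it was 0.75 to 1.35 on the wild-type arrays, 1.21 to 1.43 in Pb/2 and 1.03 to 1.14 in A2663/v, so the groups overlapped.

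**Figure D2:**
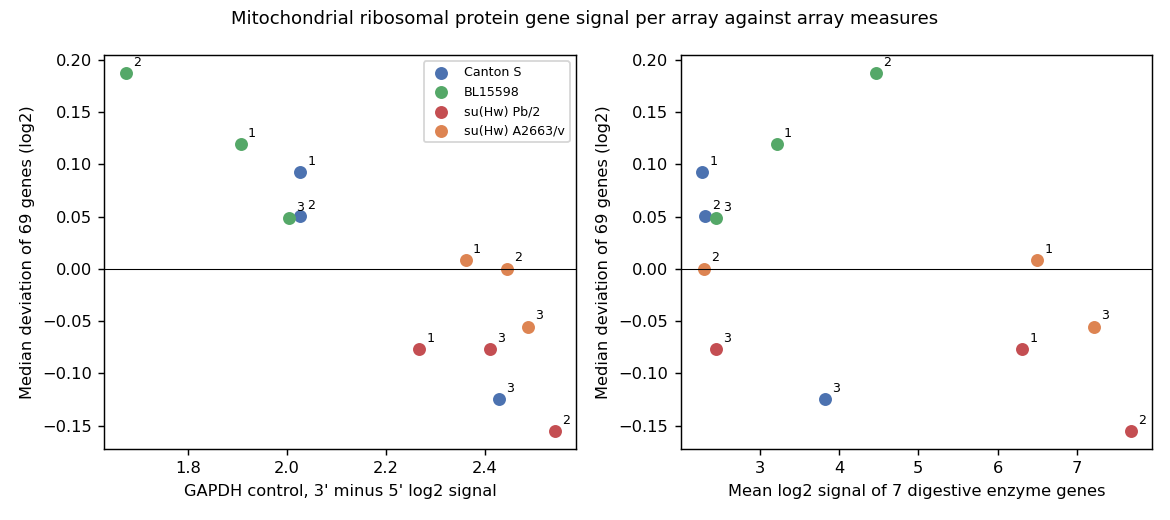
Median over the 69 genes of the log2 signal minus each gene's mean over 12 arrays (y axis), against the GAPDH 3′ minus 5′ difference (left, log2) and the mean log2 signal of 7 digestive enzyme genes (right), 1 point per array with its replicate number. Canton S replicate 3, at a deviation of -0.12, lies with the Pb/2 arrays, and BL15598 replicate 2, at 0.19, has the smallest GAPDH difference, 1.67.

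With the GAPDH difference as a covariate, an alternative chosen after seeing the data, the set's median change was 0.01 and 9 genes were called higher and 1 lower. The lower one was mRpS18A, and mRpL54 was among the higher ones. Over all genes, 11.6% were then called lower and 8.96% higher. The covariate overlaps the contrast, since 5 of the 6 lowest differences are wild-type arrays. Without Canton S replicate 3, 40 genes fell, 1 rose and the median was -0.17, while 29.8% of all genes were called lower. Without the 4 arrays with digestive enzyme signal, 4 fell and 1 rose, with a median of -0.11, while 12.1% of all genes were called lower. The part of RNA integrity and of digestive tissue in the decreases was otherwise not tested.

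The 4 pairings of 1 mutant and 1 wild type share genotypes and are given side by side. In Pb/2 minus BL15598 33 of the 69 genes fell and none rose (24.9% of all genes lower, 17.9% higher), with a median change of -0.25. mRpS18A was past 2-fold there, as 7.67% of all genes were. None rose at an unadjusted p under 0.05 in limma either. In A2663/v minus BL15598 17 fell and 2 rose (19.9% of all genes lower, 21% higher), with a median of -0.14. In Pb/2 minus Canton S 11 fell and 1 rose (18.4% lower, 10.1% higher), with a median of -0.13. In A2663/v minus Canton S 3 fell and 5 rose (14.6% lower, 12.3% higher), with a median of -0.04. The medians of all genes tested were -0.05, 0.01, -0.07 and -0.01 in these 4 comparisons, in the same order. Counts of falls were thus higher against BL15598 than against Canton S for both mutants. With the GAPDH difference as a covariate, 4 genes were called higher and 1 lower in Pb/2 minus BL15598, and 7, all higher, in A2663/v minus BL15598. There were 9 higher and 2 lower in Pb/2 minus Canton S, and 15 higher and 1 lower in A2663/v minus Canton S. Without Canton S replicate 3, A2663/v minus Canton S had 10 lower and 2 higher, and Pb/2 minus Canton S had 25 calls, against 3 without Canton S replicate 1 and 4 without replicate 2. In A2663/v minus Canton S the calls numbered 4 without Canton S replicate 2 and also without A2663/v replicate 3, and 5 without A2663/v replicate 1. In Pb/2 minus BL15598 they numbered 21 without BL15598 replicate 2. The share of all genes called was not counted for these alternative fits of the pairings, so their counts have no background to be read against.

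No gene of the set was called with 1 sign throughout the 4 comparisons by limma, as 9.44% of all genes were. At an unadjusted p under 0.05, 2 genes were lower in all 4, mRpS2 and mRpL48. Without Canton S replicate 3, 2 genes were called lower in all 4. In sign alone, 37 of the 69 genes had a negative change in each comparison. The shares of all genes for these 2 counts were not computed, and signs in comparisons that share genotypes are not independent. mRpL10, mRpL19, mRpL43 and mRpS2 fell in 3 of the 4 comparisons, each missing the threshold in A2663/v minus Canton S. For mRpS2 and mRpL48 the 6 mutant arrays all lay below the 6 wild-type arrays, and for no gene did they all lie above. Over all genes, 8.31% had all mutant arrays lower and 5.35% all mutant arrays higher.

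**Figure D3:**
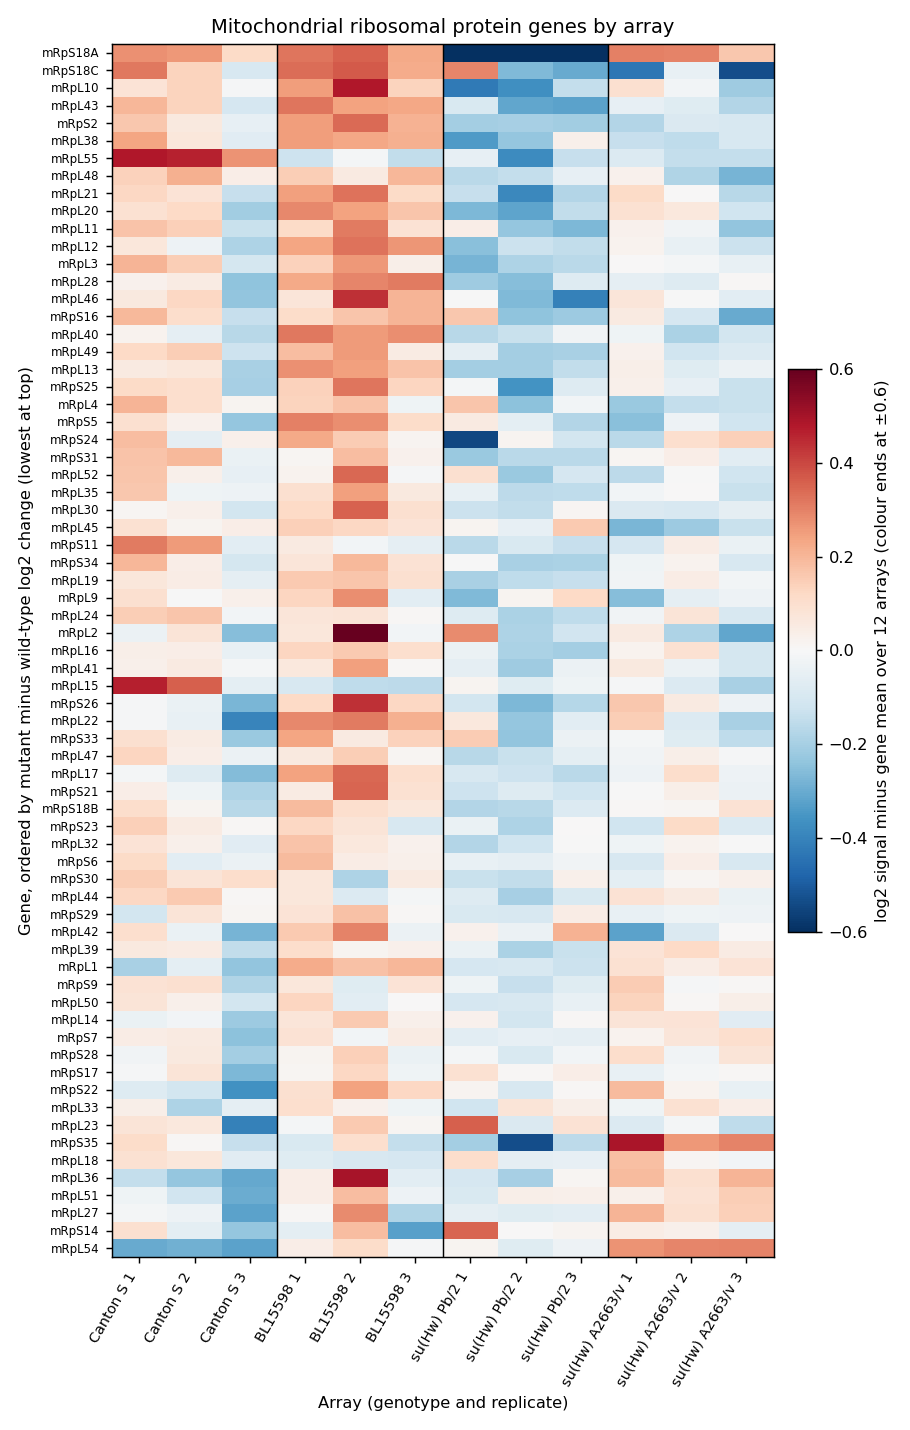
Log2 signal of each of the 69 genes minus its mean over 12 arrays (colour, ending at ±0.6), with genes in rows from the lowest to the highest mutant minus wild-type change and arrays in columns by genotype. BL15598 replicates 1 and 2, where 63 and 60 genes lie above their mean, are mostly red, and Canton S replicate 3, with 11, is mostly blue, as are the Pb/2 arrays.

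Among the mRpL genes, mRpL10 had the largest fall. The stalk is a flexible arm that calls translation factors to the ribosome, and mRpL10 encodes its base, to which mRpL12 proteins bind. mRpL10 had log2 signals of 9.50, 9.55 and 9.41 in Canton S, 9.67, 9.89 and 9.55 in BL15598, 8.99, 9.05 and 9.27 in Pb/2 and 9.51, 9.40 and 9.20 in A2663/v. Pb/2 was below all wild-type arrays, while A2663/v overlapped Canton S. mRpL10 fell by 0.36 ± 0.08 (log2 change ± SE, adjusted p = 0.00238, limma). mRpL12 fell by 0.23 ± 0.05 (adjusted p = 0.00183, limma). Its mean signal was 11.53 ± 0.13 in Canton S, 11.85 ± 0.05 in BL15598, 11.40 ± 0.07 in Pb/2 and 11.52 ± 0.07 in A2663/v (SD, n = 3 each), so BL15598 stood above the other 3 genotypes. Its change in A2663/v against Canton S was -0.0017 (adjusted p = 0.991, limma). mRpL12 was picked out after its values were seen.

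mRpL43, which encodes a large subunit protein absent from bacteria, had signals of 10.59, 10.53 and 10.29 in Canton S, 10.71, 10.63 and 10.62 in BL15598, 10.30, 10.08 and 10.07 in Pb/2 and 10.34, 10.32 and 10.21 in A2663/v. Canton S replicate 3 was at the level of the mutants, and the other 5 wild-type arrays were above all mutant arrays. mRpL43 fell by 0.34 ± 0.06 (adjusted p = 0.000650, limma). mRpL48 had signals of 8.20, 8.28 and 8.10 in Canton S, 8.21, 8.12 and 8.26 in BL15598, 7.90, 7.92 and 8.01 in Pb/2 and 8.09, 7.88 and 7.78 in A2663/v. Its highest mutant array was just below its lowest wild-type array. mRpL48 fell by 0.26 ± 0.07 (adjusted p = 0.00798, limma). Other large subunit genes among the largest decreases were mRpL38 at -0.31, mRpL21 at -0.25 and mRpL20 at -0.23. mRpL20 and mRpL21 encode homologues of the bacterial proteins L20 and L21. The calls of mRpL10, mRpL20, mRpL21, mRpL38 and mRpL48 were lost without the 4 arrays with digestive enzyme signal, in a fit with 1 array per mutant, where the changes were -0.26, -0.16, -0.21, -0.22 and -0.25. Those of mRpL20, mRpL21 and mRpL48 were lost also with that signal as a covariate.

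In the small subunit, mRpS2, a homologue of bacterial S2, had signals of 10.02, 9.92 and 9.81 in Canton S, 10.11, 10.20 and 10.07 in BL15598, 9.65, 9.66 and 9.65 in Pb/2 and 9.69, 9.77 and 9.76 in A2663/v. Every mutant array was below every wild-type array, with Canton S replicate 3 the nearest. mRpS2 fell by 0.32 ± 0.05 (adjusted p = 0.000238, limma). Its change was -0.26 and -0.47 in Pb/2 against Canton S and BL15598 and -0.18 and -0.39 in A2663/v, of which -0.18 was not called (adjusted p = 0.0947, limma). With the GAPDH covariate mRpS2 changed by -0.21 and was not called, and mRpL43 by -0.13, mRpL10 by -0.16 and mRpL55 by -0.06, none of them called.

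Flies have 3 genes for proteins of the S18 family, mRpS18A, mRpS18B and mRpS18C, and 2 of them had the largest decreases of the set. mRpS18A, whose mammalian counterpart sits in the large subunit in spite of its name, had signals of 11.72, 11.70 and 11.56 in Canton S, 11.77, 11.80 and 11.67 in BL15598, 10.71, 10.62 and 10.68 in Pb/2 and 11.75, 11.75 and 11.61 in A2663/v. The Pb/2 arrays were far below the other 9, and A2663/v lay within the wild types. The fall of 0.52 ± 0.04 in the joint comparison (adjusted p = 1.01e-06, limma) thus came from 1 mutant. Pb/2 was 2.04-fold lower than A2663/v (log2 change -1.03 ± 0.06, adjusted p = 2.89e-07, limma), 2.11-fold lower than BL15598 and 1.99-fold lower than Canton S. A2663/v differed from Canton S by 0.04 (adjusted p = 0.704) and from BL15598 by -0.05 (adjusted p = 0.598, both limma).

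mRpS18C had signals of 7.50, 7.32 and 7.09 in Canton S, 7.52, 7.55 and 7.40 in BL15598, 7.48, 6.92 and 6.88 in Pb/2 and 6.75, 7.14 and 6.65 in A2663/v. The arrays were widely scattered, with Pb/2 replicate 1 among the wild types. mRpS18C fell by 0.43 ± 0.12 (adjusted p = 0.0130, limma), and the call was lost without the 4 arrays with digestive enzyme signal, with that signal as a covariate and with the GAPDH covariate, where the changes were -0.39, -0.36 and -0.07. mRpS18B changed by -0.11 and was not called.

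A neighbour of mRpS18A was also lower in Pb/2 than in A2663/v. In the order of protein-coding genes in the RefSeq table, mRpS18A lies between pch2, a gene of the meiotic checkpoint, and CG31460. pch2 had mean signals of 10.05 ± 0.06 in Canton S, 9.93 ± 0.04 in BL15598, 9.01 ± 0.12 in Pb/2 and 10.35 ± 0.07 in A2663/v (SD, n = 3 each), and was 1.34 log2 units lower in Pb/2 than in A2663/v (log2 change -1.34, adjusted p = 1.96e-07, limma). Pb/2 was the lowest genotype for both genes. Unlike mRpS18A, pch2 also rose in A2663/v, by 0.29 against Canton S (adjusted p = 0.0126) and by 0.41 against BL15598 (adjusted p = 0.000863, both limma). CG31460 changed by -0.05 (adjusted p = 0.860, limma). mRpS18A and su(Hw) both lie on 3R, with 762 genes between them. The third chromosomes of Pb/2 and A2663/v differ in their labels, and whether either carries a further change near mRpS18A was not tested.

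Only 3 genes of the set differed between the mutants, all lower in Pb/2 (5.08% of all genes lower, 2.95% higher), with a median of -0.10 for the set and -0.05 for all genes. mRpS18A was the 1 gene past 2-fold, as 2.09% of all genes were. The second was mRpS35, a small subunit protein absent from bacteria, with signals of 9.45, 9.34 and 9.20 in Canton S, 9.25, 9.44 and 9.19 in BL15598, 9.13, 8.80 and 9.18 in Pb/2 and 9.83, 9.60 and 9.63 in A2663/v. All A2663/v arrays were above all others, and Pb/2 was below the wild types. mRpS35 was 1.57-fold lower in Pb/2 (log2 change -0.65 ± 0.11, adjusted p = 0.00294, limma). It rose in A2663/v against Canton S by 0.36 (adjusted p = 0.0348, limma) and against BL15598 by 0.39 (adjusted p = 0.0149, limma). Against both wild types together the mutants changed by 0.05 (adjusted p = 0.632, limma). Pgant6, beside mRpS35, was also lower in Pb/2 than in A2663/v, with a log2 change of -0.61 (adjusted p = 0.0159, limma), but fell by 0.41 in A2663/v against Canton S (adjusted p = 0.0452, limma), where mRpS35 rose. Atg2, on the other side, had a change of -0.0018 between the mutants (adjusted p = 0.997, limma). Leaving out Canton S replicate 3 brought the count of genes differing between the mutants to 8, 7 of them lower in Pb/2. The share of all genes in that fit was not counted.

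The third was mRpL54, a large subunit gene and the 1 gene of the set that rose in the joint comparison. Its signals were 10.53, 10.54 and 10.51 in Canton S, 10.87, 10.94 and 10.82 in BL15598, 10.85, 10.76 and 10.80 in Pb/2 and 11.10, 11.13 and 11.13 in A2663/v. Canton S was below all other arrays, A2663/v was above them, and Pb/2 overlapped BL15598. mRpL54 rose by 0.26 ± 0.04 in the mutants (adjusted p = 0.000179, limma). It rose by 0.59 in A2663/v and 0.27 in Pb/2 against Canton S and by 0.24 in A2663/v against BL15598, and changed by -0.08 in Pb/2 against BL15598 (adjusted p = 0.287, limma). It was lower in Pb/2 than in A2663/v (log2 change -0.32 ± 0.06, adjusted p = 0.00288, limma). Without the 4 arrays with digestive enzyme signal, the differences between the mutants were -0.42 for mRpS35 (adjusted p = 0.494) and -0.33 for mRpL54 (adjusted p = 0.320), no longer called by limma, in a fit with 1 Pb/2 and 1 A2663/v array.

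**Figure D4:**
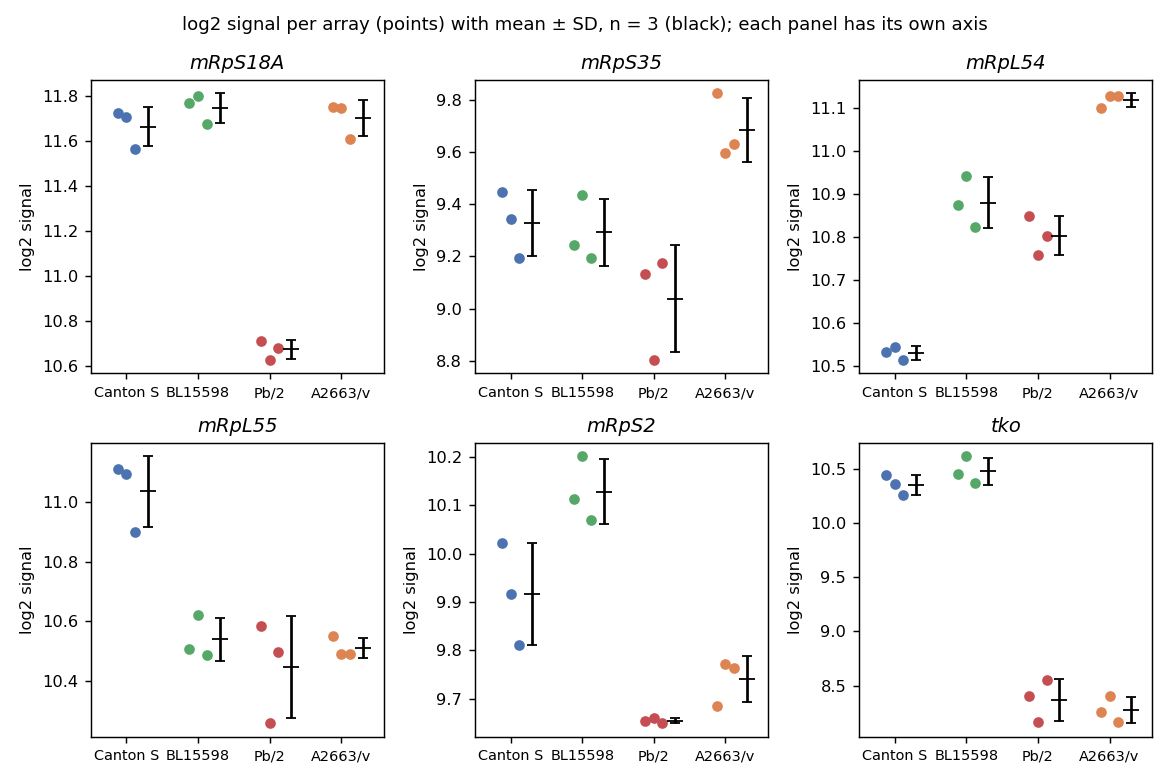
Log2 signal per array (points) with mean ± SD (black, n = 3) in the 4 genotypes for 6 genes, each on its own axis. mRpS18A is low in Pb/2 alone, mRpL55 is high in Canton S alone, and tko is lower in both mutants, at 8.37 and 8.27, than in both wild types, at 10.35 and 10.48.

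The wild types themselves differed in this set. In BL15598 minus Canton S, 12 of the 69 genes were higher and 2 lower (11.2% of all genes higher, 14.2% lower). The median was 0.11 against -0.02 for all genes, with 57 changes above 0, against 2909 of all 6163 genes. The GAPDH 3′ minus 5′ difference was 1.86 ± 0.17 in BL15598 and 2.16 ± 0.23 in Canton S (SD, n = 3 each). With it as a covariate 2 genes were called higher and 2 lower, and the share of all genes was not counted there. The largest rises were mRpL22 at 0.42, mRpL36 at 0.38, mRpL1 at 0.36, mRpL40 at 0.35 and mRpL54 at 0.35. mRpL1 belongs to the arm through which spent tRNA leaves the ribosome, and mRpL22 lines the exit tunnel for the growing chain. mRpL1 had signals of 10.59, 10.73 and 10.55 in Canton S and 11.01, 10.97 and 10.99 in BL15598, which do not overlap. mRpL22 had signals of 10.71, 10.68 and 10.33 in Canton S and 11.01, 11.03 and 10.93 in BL15598, and its call was lost without Canton S replicate 3, without BL15598 replicate 2 and with the GAPDH covariate. Both genes were higher on every BL15598 array. The call of mRpL36 was lost under 7 of 29 alternative settings, among them leaving out Canton S replicate 2 or 3 or BL15598 replicate 2. Leaving out BL15598 replicate 2 left 7 calls.

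The 2 genes lower in BL15598 were mRpL55 and mRpL15. mRpL55 had signals of 11.11, 11.10 and 10.90 in Canton S, 10.51, 10.62 and 10.49 in BL15598, 10.58, 10.26 and 10.50 in Pb/2 and 10.55, 10.49 and 10.49 in A2663/v. Canton S stood above the other 3 genotypes, which overlapped. mRpL55 was lower than in Canton S by a log2 change of -0.50 ± 0.09 in BL15598 (adjusted p = 0.00103, limma), -0.59 in Pb/2 and -0.53 in A2663/v, and its joint fall of 0.31 (adjusted p = 0.00123, limma) came from Canton S. Against BL15598 it changed by -0.09 in Pb/2 and -0.03 in A2663/v, neither called. mRpL15, which encodes a homologue of bacterial L15, had signals of 10.45, 10.34 and 9.93 in Canton S and 9.89, 9.83 and 9.83 in BL15598. Canton S replicate 3 was near BL15598. The log2 change was -0.39 ± 0.11 (adjusted p = 0.0206, limma), and the call was lost when Canton S replicate 1 or 2 or BL15598 replicate 2 or 3 was left out.

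For 2 genes there were 2 probe sets each. In a limma fit with each probe set on its own row, the brighter one of mRpS11 changed by -0.16 (adjusted p = 0.0318) and the other by -0.25 (adjusted p = 0.00654), and those of mRpL47 by -0.12 (adjusted p = 0.0336) and -0.17 (adjusted p = 0.0186). All 4 were called lower in mutants minus wild types, and the brighter ones are among the 30 falls. Between the wild types the mRpS11 probe sets went opposite ways. Means in Canton S and BL15598 were 12.22 and 12.04 for the brighter one, and 9.03 and 9.27 for the other. The shared probe set of mRpS10 and CG34316 changed by -0.24 and that of mRpL53 and CG33155 by -0.11, and neither was tested.

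Among mitochondrial ribosomal protein genes with other names, tko encodes the mitochondrial homologue of bacterial S12, a small subunit protein at the decoding centre, and its symbol puts it outside the set. Its signals were 10.44, 10.36 and 10.26 in Canton S, 10.46, 10.62 and 10.37 in BL15598, 8.40, 8.16 and 8.55 in Pb/2 and 8.26, 8.41 and 8.16 in A2663/v. Every mutant array was far below every wild-type array. tko was 4.27-fold lower in the mutants (log2 change -2.09 ± 0.08, adjusted p = 1.51e-10, limma), more than the change of any of the 69 genes, and was called in all 4 comparisons, with changes of -1.98 to -2.20. tko is X-linked, with 41 genes between it and w, which is marked in both mutants and in BL15598. Between it and ct, marked in the mutants only, lie 444 genes. Neither wild type has the X of the mutants, so for tko that chromosome and the loss of Su(Hw) cannot be told apart. boi, beside tko, rose by 0.68 (adjusted p = 1.41e-05, limma). bonsai, for the homologue of bacterial S15, fell by 0.18 ± 0.07 (adjusted p = 0.0392, limma), a change within the range of the 69 genes, and lost its call in 15 of 29 settings.

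The other lists are read against the 26.6% of all genes called lower and 20.3% called higher. Of 15 genes for mitochondrial tRNA synthetases, enzymes that load amino acids onto tRNA, and their relative Slimp, counted among the 15, 6 fell (40%), with a median of -0.19. MetRS-m fell by 0.93 ± 0.14 (adjusted p = 0.000157) and ProRS-m by 0.76 ± 0.09 (adjusted p = 2.73e-05, limma), both in all 4 comparisons. ArgRS-m fell by 0.32 and Slimp by 0.31. Of 10 translation factors 3 fell, mRF1 by 0.22, mEFTu2 by 0.19 and mIF3, with a median of -0.11 for the list. The share of falls, 30%, was near that of all genes. mEFTu2 lost its call in 21 of 29 alternative settings and mRF1 in 17, with 1 more that reversed it. MetRS-m lost its call with the GAPDH covariate. mIF3, the initiation factor that keeps the subunits apart, had mean signals of 5.37 in Canton S, 5.82 in BL15598, 4.13 in Pb/2 and 4.86 in A2663/v, near or under the floor, so its log2 change of -1.10 was -0.65 after values under the floor were raised to it.

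For mitochondrial DNA maintenance and transcription, 2 of 12 genes rose and 2 fell (median 0.04). TFAM, which packages mitochondrial DNA, fell by 0.55 ± 0.12 (adjusted p = 0.00194, limma) and mTerf3 by 0.40, while mtTFB2 rose by 0.26 and mtDNA-helicase by 0.25. Of 13 protein import genes 6 fell and 1 rose (median -0.07). Tom40, the channel of the outer membrane, fell by 0.34 ± 0.05 (adjusted p = 8.37e-05, limma) and in all 4 comparisons, and ttm50, Tom20 and Hsc70-5 fell by 0.24, 0.18 and 0.17. With the GAPDH covariate the change of TFAM was -0.07 and not called. Tom20 lost its call in 12 of 29 settings and ttm50 in 8, each with 1 more that reversed it, and mtDNA-helicase in 11.

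The products of mitochondrial translation join nuclear subunits of the respiratory chain. Of 26 complex I genes 5 (19.2%) fell and 2 rose (median -0.05), among them ND-39 at -0.23, ND-75 at -0.18, ND-51 at -0.18 and ND-13A at 0.30. Of 29 genes for complexes II to V, 7 (24.1%) fell and 2 rose (median -0.02), among them ATPsynCF6 at -0.37, RFeSP at -0.28, SdhD at -0.20 and UQCR-11 at 0.83. Both shares of falls were below that of all genes. ND-75 lost its call in 20 of 29 settings, and SdhD in 15, with 1 more that reversed it. The cytoplasmic ribosomal protein genes went the other way, with 14 of 36 higher and 2 lower and a median of 0.07. RpS10a rose by 2.07, RpL27 by 0.34 and RpL34a by 0.14, and RpS19b fell by 0.85. The rise of RpS10a ran from 0.81 to 2.53 over the 27 alternative settings in which it was tested. In the others it missed a signal filter, so the size of its rise is uncertain. Of 26 proteasome genes 2 rose, Rpn2 by 0.23 and Prosalpha3 by 0.20, and 2 fell, Rpn11 by 0.18 and Prosbeta3 by 0.09, with a median of -0.03. RpL34a lost its call in 11 of 29 settings and Prosbeta3 in 16. Whether the mitochondrial and cytoplasmic ribosomal sets differ was not tested.

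**Figure D5:**
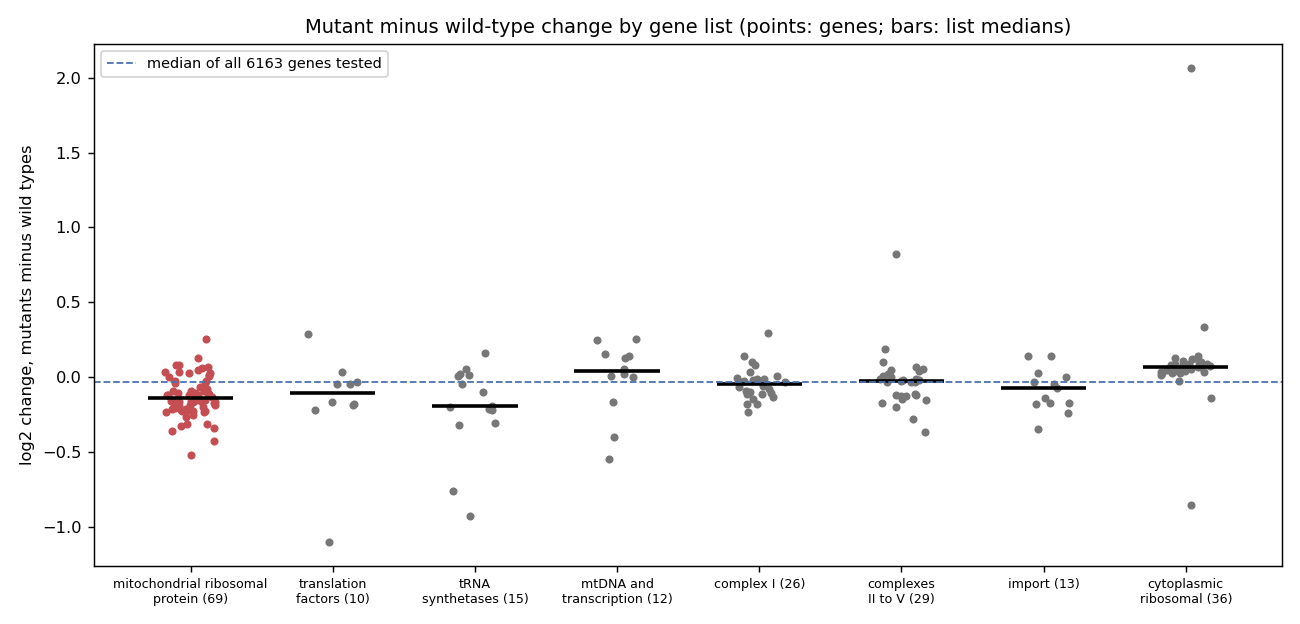
Mutant minus wild-type log2 change (y axis) of each tested gene in 8 lists, with the number of genes in brackets, black bars for list medians and a dashed line for the median of all 6163 genes, -0.03. The median of the 69 mitochondrial ribosomal protein genes, -0.14, lies below the line and that of the cytoplasmic ribosomal protein genes, 0.07, above it.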

How the data were processed

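The deposited values are log2 signals of 18952 probe sets on 12 arrays, made by the authors with Partek 6.5 and GCRMA, per the submitters' processing notes. GCRMA corrects background by probe sequence, usually equalises the arrays' distributions and summarises probe sets, which can remove shifts common to most genes. Values ran from 1.60 to 15.64, and 61.9% lay under log2 5. Arrays have no read depth, and 3 per genotype limit the precision. Each gene took the brightest of its 13647 single-gene probe sets in the platform table, with 13544 symbols updated through RefSeq. The sources name no genome build, so the RefSeq table gave only names and gene order. The 402 probe sets with several genes, 4720 with no entry and 183 controls were left out of the tests.

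Genes over log2 5 on at least 3 of 12 arrays were fitted in limma 3.58.1 (R 4.3.3) with 4 genotype means, variance trend and Benjamini-Hochberg adjustment over 6163 genes. The functions were tested on simulated data. Members and lists were chosen with earlier results of these data known. Text names the 10 largest called rises and falls of members in the joint comparison, the 5 largest each way in the wild-type pair and in the mutant pair, members called in all 4 comparisons, the 5 brightest and 5 dimmest, probe sets that disagree in a call (none did), and up to 4 called genes per list. Neighbouring genes, tko's levels and mRpL12, mRpL19 and mRpS18B were added. Replicate numbers did not pair samples: deviations of same-numbered arrays from their genotype means correlated at -0.527 to 0.368.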

Additional observations from a re-analysis of the deposited data

Results flagged for a closer look

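The levels of 3 genes differed between the mutants, tested as Pb/2 minus A2663/v in limma. This equals the difference of their changes against any 1 wild type. The third chromosomes of the mutants differ in their labels, and whether the su(Hw) alleles underlie these differences was not tested. mRpS18A had a log2 difference of -1.03 and was called under all 29 alternative settings, between -1.08 and -0.98. mRpS35 had a difference of -0.65 and mRpL54 of -0.32, and each lost its call in 1 of 29 settings, that without the 4 arrays with digestive enzyme signal. There the differences were -0.42 for mRpS35 and -0.33 for mRpL54, between 1 array of each mutant, whose spread was taken from the wild-type arrays. For all 3 genes the 3 Pb/2 arrays were below the 3 A2663/v arrays.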

How the results depend on the processing

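Calls are given in the order mutants minus wild types, A2663/v minus Canton S, A2663/v minus BL15598, Pb/2 minus Canton S, Pb/2 minus BL15598, BL15598 minus Canton S, Pb/2 minus A2663/v and all 4 comparisons, for which the reported counts were 31, 8, 19, 12, 33, 14, 3 and 0. Mainly counts that moved by over 1.5 times follow. Apart from the 2-fold minimum, the share of all genes called in an alternative was counted at most in mutants minus wild types. At an adjusted p under 0.01 the first 6 were 16, 2, 8, 3, 18 and 6. With a 1.5-fold minimum they were 0, 1, 1, 2, 2 and 0, and with a 2-fold minimum 0, 0, 0, 0, 1 and 0, with 1 between the mutants. Array weights gave 47, 21, 31 and 38 in the first 4 (46, 16, 29 and 37 lower), 7 between the mutants and 10 in all 4 comparisons. With these weights 34% of all genes were called lower in mutants minus wild types. Without a filter A2663/v minus Canton S had 4, and median centring gave 6 in Pb/2 minus Canton S. A fit of only the 6 arrays compared also gave 6 there. A separate fit of only the 6 wild-type arrays gave 9 between the wild types. The alternatives for su(Hw) and the GAPDH covariate were chosen after seeing the data, and those on digestive enzyme signal with earlier results known. Without the 4 arrays with digestive enzyme signal the counts were 5, 2, 1, 2, 8, 9 and 1, with fewer samples. With that signal as a covariate 11 were called in mutants minus wild types, and 3 in each mutant minus Canton S. With the GAPDH difference as a covariate the counts were 10, 16 and 7 in the first 3, of which 9, 15 and 7 were higher, 11 in Pb/2 minus Canton S (9 higher), 5 in Pb/2 minus BL15598 (4 higher), 4 between the wild types (2 higher), 11 between the mutants (1 higher) and 2 in all 4 comparisons (mRpL23 and mRpS14, higher). There the median change reversed from -0.14 to 0.0148, as did mRpL21 to 0.0394, ttm50 to 0.0804, Tom20 to 0.0443, mRF1 to 0.0164 and SdhD to 0.0786, and the cause was not tested.

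Leaving out 1 array at a time gave 22 to 41, 4 to 12, 13 to 23, 3 to 25, 21 to 36, 7 to 16, 3 to 8 and 0 to 2 calls, a median change of -0.17 to -0.11 and a su(Hw) change of -6.44 to -6.25. With the replicate block 33 genes were called, 32 lower and 1 higher, and the median was -0.14, while 26.7% of all genes were called lower. The numbers did not pair the arrays: 5 of 18 same-numbered pairs and 14 of 36 others correlated over 0.1, and 4 of 12 arrays correlated best with their own number. The scalings tried (median centring, cyclic loess, quantile) gave 20 to 23 falls, 1 or 2 rises and medians of -0.13 to -0.10. Of all genes, 25.3%, 23.2% and 26.1% were called lower under these scalings, so the set lay nearer the background than in the reported fit. tko, mRpS18A, mRpL54, Tom40 and ProRS-m kept direction and call in mutants minus wild types under all 29 settings. All members were measured well over the floor, so the floor limits none of them. Outside the set it limits mIF3 and may limit RpS10a. RpS10a, like mIF3, was tested in only 27 of the 29 settings, as it missed a signal filter in the others, and its changes ran from 0.81 to 2.53.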
